A study of Mus musculus with 14 samples.

Results

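Promoter to promoter contacts are chromatin interactions in which both interacting fragments carry a captured promoter. Promoter capture Hi-C (PCHi-C) cuts crosslinked chromatin with HindIII, ligates neighbouring fragments, and selects ligation products that contain a promoter fragment, the bait. A pair was counted here when both of its fragments occurred as a bait in any of the 14 libraries, both lay on the same chromosome, and their midpoints were less than 2 Mb apart. This rule found 63083 distinct promoter pairs among 562705 listed pairs within 2 Mb and 1345534 listed pairs in all. Of 22171 bait fragments, 21626 held an annotated start site, 17685 held the start site of a protein-coding gene, and 19500 took part in at least 1 promoter pair.

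The libraries came from cranial neural crest cells (CNCCs), the cells that leave the dorsal neural tube and build most of the facial skeleton, in 7 conditions with 2 biologically independent replicates each. The wild-type cells were RFP-positive CNCCs sorted from Wnt1::Cre;ROSA RFP embryos, in which the Wnt1 promoter drives Cre in premigratory neural crest progenitors, on a mixed C57Bl/6J;CD1 background with embryos of both sexes pooled. They were taken at E10.5 from the FNP (frontonasal process), from the Mx (maxillary) and Md (mandibular) parts of the first pharyngeal arch and from PA2, the second arch, and from the PA2-derived pinna, the outer ear, at E12.5 and E14.5. The knockout cells were GFP-positive CNCCs of E10.5 PA2 from Hoxa2EGFP/EGFP embryos, in which EGFP takes the place of Hoxa2, so the reporter and the genotype cannot be told apart. FNP, Mx and Md are Hox-negative, whereas PA2 and the pinna express Hoxa2. E10.5 and E12.5 tissue was dissociated with trypsin and E14.5 tissue with papain, so the E14.5 stage and the enzyme cannot be told apart either.

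CHiCAGO scores each pair against a background that falls with distance and is fitted within each library, and the lists hold scores of 5 or more. An unlisted pair is written as 0, since the lists do not tell a score below 5 from a pair that was not scored. No read counts were at hand, so the depth is unknown and all errors are between libraries. The lists of Md replicate 1 and of E12.5 pinna replicate 2, which their names call merged, stand apart. Pairs between chromosomes made up 46.5% and 62.7% of them, against between 2.64% and 5.61% of the other 12. Expression was not measured in these libraries, so the loss of Hoxa2 and the cell identity were not checked here.

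Promoters come close to one another for several known reasons. Active genes can gather where transcription factors and polymerase are concentrated, genes under Polycomb repression can gather in compact bodies, and cohesin can bring together sites bound by CTCF. Tandem gene families, such as the Hox genes that give cells their position along the body, the replication-dependent histones and the clustered protocadherins, place many related promoters within reach of each other.

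Promoter sequences of genes on which the results turn are given first, because the pairs join these fragments. RefSeq (GRCm38.p6) holds 300 bases around each start site, 250 before and 50 after, written in the direction of transcription, and 16416 of its promoters lay on 13804 baits. Capitals mark matches on either strand to TATAAA, to CCAAT, to the GC box GGGCGG and to a CTCF-type core, which is CCA, 2 bases of any kind, AG, 2 further bases of any kind and GGC. Hoxa2 and Hoxa13 are shown for a pair listed in the Hox-negative libraries only, Irx3 for a pair present in all 14 libraries, Sim1 and Vgll2 for a pair absent in the E14.5 pinna, and H13 and Bcl2l1 for one of the strongest pairs.
Hoxa2, chr6:52164782-52165081, minus strand: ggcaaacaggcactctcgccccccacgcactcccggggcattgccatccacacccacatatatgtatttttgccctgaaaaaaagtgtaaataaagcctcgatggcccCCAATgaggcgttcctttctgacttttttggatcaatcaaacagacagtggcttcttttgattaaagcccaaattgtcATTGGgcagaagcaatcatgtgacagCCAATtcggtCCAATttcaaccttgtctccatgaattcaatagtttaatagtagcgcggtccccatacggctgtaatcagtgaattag
Hoxa13, chr6:52260831-52261130, minus strand: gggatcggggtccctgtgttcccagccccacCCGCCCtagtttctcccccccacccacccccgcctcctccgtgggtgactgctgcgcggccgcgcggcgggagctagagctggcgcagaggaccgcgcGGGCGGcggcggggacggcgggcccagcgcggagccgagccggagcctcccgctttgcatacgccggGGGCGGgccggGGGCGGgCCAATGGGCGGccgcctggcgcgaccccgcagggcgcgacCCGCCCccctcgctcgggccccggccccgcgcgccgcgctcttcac
Irx3, chr8:91801605-91801904, minus strand: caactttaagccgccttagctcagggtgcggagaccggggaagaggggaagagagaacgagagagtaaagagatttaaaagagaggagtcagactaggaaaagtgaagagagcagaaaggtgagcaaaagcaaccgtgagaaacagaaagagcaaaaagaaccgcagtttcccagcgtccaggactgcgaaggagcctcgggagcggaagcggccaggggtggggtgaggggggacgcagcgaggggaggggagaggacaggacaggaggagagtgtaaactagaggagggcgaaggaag
Sim1, chr10:50895401-50895700, plus strand: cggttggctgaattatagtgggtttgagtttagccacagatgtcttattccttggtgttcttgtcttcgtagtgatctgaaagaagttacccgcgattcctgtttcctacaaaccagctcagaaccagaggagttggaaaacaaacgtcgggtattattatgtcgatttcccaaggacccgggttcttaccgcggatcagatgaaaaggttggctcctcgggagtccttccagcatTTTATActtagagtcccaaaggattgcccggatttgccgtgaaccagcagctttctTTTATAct
Vgll2, chr10:52022252-52022551, plus strand: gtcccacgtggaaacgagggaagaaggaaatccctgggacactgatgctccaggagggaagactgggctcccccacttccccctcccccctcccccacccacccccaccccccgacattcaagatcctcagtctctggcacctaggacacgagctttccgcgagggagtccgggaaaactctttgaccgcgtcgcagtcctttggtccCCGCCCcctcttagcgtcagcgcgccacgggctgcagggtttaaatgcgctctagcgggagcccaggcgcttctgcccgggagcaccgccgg
H13, chr2:152669211-152669510, plus strand: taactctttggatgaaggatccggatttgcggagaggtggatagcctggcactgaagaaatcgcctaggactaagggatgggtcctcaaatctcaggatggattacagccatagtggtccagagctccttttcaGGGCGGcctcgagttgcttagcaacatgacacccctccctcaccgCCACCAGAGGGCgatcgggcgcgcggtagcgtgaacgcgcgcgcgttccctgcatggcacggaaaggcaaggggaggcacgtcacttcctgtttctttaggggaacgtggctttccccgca
Bcl2l1, chr2:152830668-152830967, minus strand: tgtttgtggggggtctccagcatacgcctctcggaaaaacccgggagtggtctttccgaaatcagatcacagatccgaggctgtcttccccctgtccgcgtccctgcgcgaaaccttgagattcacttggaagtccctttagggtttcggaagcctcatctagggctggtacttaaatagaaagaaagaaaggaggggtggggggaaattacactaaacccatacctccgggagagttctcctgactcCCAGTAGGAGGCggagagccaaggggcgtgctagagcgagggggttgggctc
The Hoxa2 promoter held 4 CCAAT boxes, and the Hoxa13 promoter held 6 GC boxes and 1 CCAAT box. The Irx3 window held none of the motifs, the Sim1 window held 2 TATA boxes and the Vgll2 window 1 GC box. H13 and Bcl2l1 each held 1 match to the CTCF-type core. A match to these letters is a description of the window and not a bound site.

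Each library listed between 17180 and 21251 promoter pairs within 2 Mb, with a median of 20305.5. They made up between 12.2% and 16.6% of its listed pairs within 2 Mb (median 15.6%), whereas pairs of 2 baits were 2.40% of all possible pairs of a bait with another fragment at these distances. Of 600695 possible promoter pairs, a library listed between 2.86% and 3.54%. Of 24451797 possible pairs of a bait with a fragment that was no bait, it listed between 0.367% and 0.546%, so the ratio of these percentages was between 5.65 and 8.08. Over the 7 condition means, 3.29% ± 0.215 of promoter pairs and 0.446% ± 0.0375 of the other pairs were listed (SD, n = 7), higher for promoter pairs in 7 of 7 conditions (exact sign-flip permutation test, two-sided, p = 0.0156, the smallest that 7 conditions allow). Both ends of a promoter pair are captured, so more contacts and capture from both ends cannot be told apart.

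**Figure D1:**
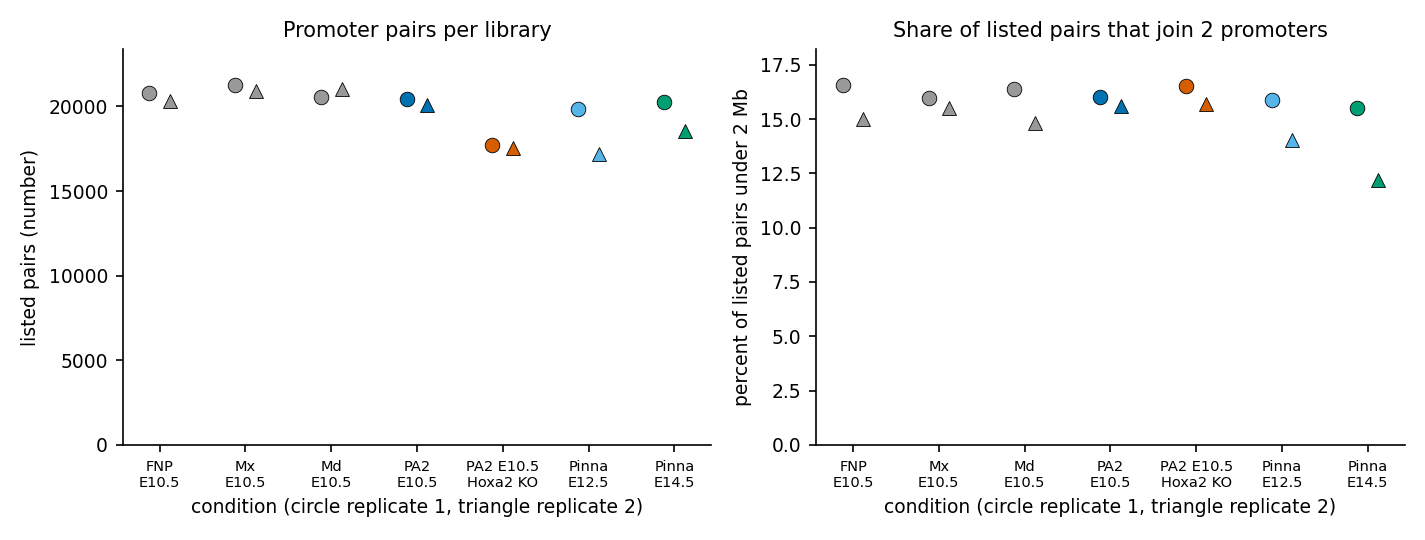
Number of promoter pairs within 2 Mb (left) and their percent among all listed pairs within 2 Mb (right) in each library, by condition, with circles for replicate 1 and triangles for replicate 2. Counts ran from 17180 in E12.5 pinna replicate 2 to 21251 in Mx replicate 1, and shares from 12.2% in E14.5 pinna replicate 2 to 16.6% in FNP replicate 1.

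The lowest counts were those of E12.5 pinna replicate 2, with 17180 pairs, and of the knockout, with 17714 and 17518. The share of promoter pairs was 14.9% ± 1.497 in the Hoxa2-expressing libraries and 15.7% ± 0.715 in the Hox-negative libraries (SD, n = 6 each). This difference of -0.835 percentage points was within the spread (exact permutation test, two-sided, p = 0.281). It depended on the threshold, since it was -3.34 when a score of 10 or more was required (exact permutation p = 0.0195) and -1.38 when every library was cut to the same number of highest scores (exact permutation p = 0.0281). Without E14.5 pinna replicate 2 it was -0.298 (exact permutation p = 0.563). The number of pairs was 19393 ± 1284 in the Hoxa2-expressing and 20806.5 ± 335 in the Hox-negative libraries, a difference of -1413 (SD, n = 6 each; exact permutation test, two-sided, p = 0.00433). These tests took libraries as units, so the 2 replicates of a condition counted as independent. Their p-values do not measure the spread between conditions. All Hox-negative libraries are from E10.5, so subpopulation and stage cannot be told apart in this comparison.

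Promoter pairs spanned shorter distances than the other pairs. Their median distance was between 232 kb and 300 kb in a library, against between 312 kb and 390 kb for pairs of a promoter with another fragment. Over conditions the medians were 261 kb ± 14.3 and 332 kb ± 14.8 (SD, n = 7), a difference of -70.5 kb on average, shorter in 7 of 7 conditions (exact sign-flip permutation test, two-sided, p = 0.0156). Between 17.2% and 23.1% of promoter pairs lay within 100 kb, and between 6.17% and 11.8% lay more than 1 Mb apart. Their median score was also higher, 6.90 ± 0.106 against 6.31 ± 0.0578 (SD, n = 7), in 7 of 7 conditions (exact sign-flip permutation test, two-sided, p = 0.0156).

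The share of possible promoter pairs that a library listed was nearly level up to 200 kb and then fell. It was 10.1% on average below 20 kb and 10.0% between 100 and 200 kb, then 5.64% between 300 and 500 kb, 0.790% between 1000 and 1500 kb and 0.522% between 1500 and 2000 kb. Pairs of a promoter with another fragment stood at 1.47%, 1.54%, 0.978%, 0.132% and 0.0839% in the same bins. The median ratio of the shares was between 5.76 and 11.1 in every bin, highest from 20 to 50 kb. The limit of 2 Mb did not fall at a break in the data, since 351 pairs lay in the last 50 kb below it with a median mean score of 0.584, and 323 promoter pairs lay in the first 50 kb above it with a median of 0.615.

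**Figure D2:**
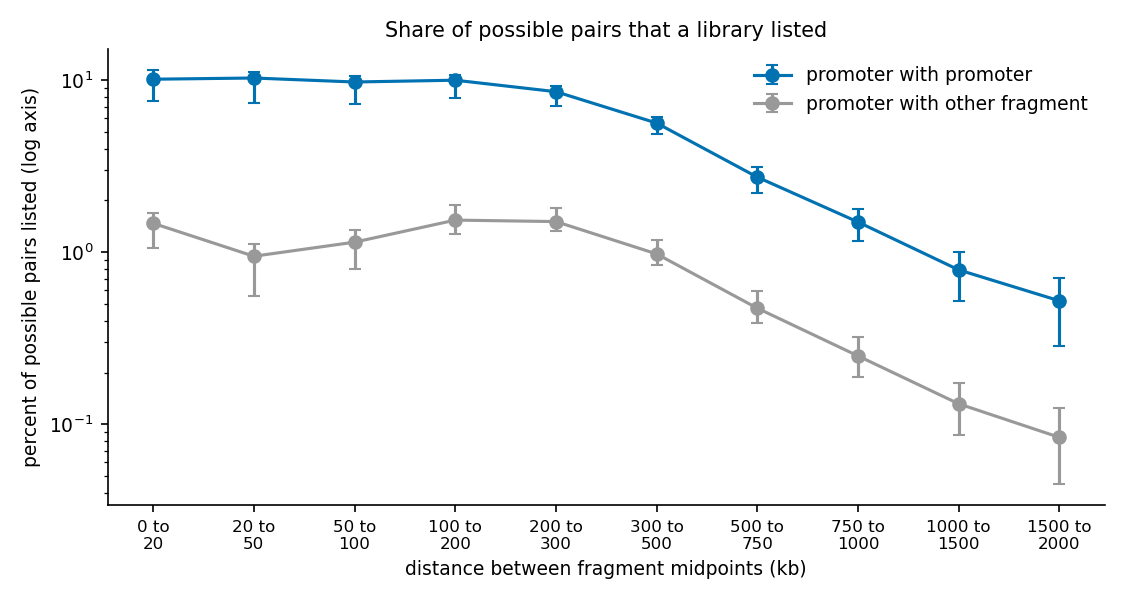
Percent of possible pairs that a library listed (log axis) by the distance between fragment midpoints in kb, for promoter pairs (blue) and for pairs of a promoter with another fragment (grey). Points are means over the 14 libraries and bars run from the lowest to the highest library. Promoter pairs lay above the other pairs in every bin, at 10.1% against 1.47% below 20 kb and at 0.522% against 0.0839% from 1500 to 2000 kb.

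Promoter pairs recurred between replicates more often than the other pairs. Of the pairs that either replicate of a condition listed, both listed 42.8% ± 5.07 of promoter pairs and 32.8% ± 3.47 of the other pairs (SD, n = 7), a difference of 10.1 percentage points in the same direction in 7 of 7 conditions (exact sign-flip permutation test, two-sided, p = 0.0156). With a score of 10 or more required, the difference was 0.740 and no longer passed the test (exact p = 0.453). A pair is called reproducible below when both replicates of at least 1 condition listed it. In all, 26514 promoter pairs were reproducible, 42.0% of those listed, against 28.0% of the other pairs, and 22111 (35.1%) were listed in 1 library, against 51.6% of the other pairs.

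Of the reproducible promoter pairs, 9512 (35.9%) were reproducible in 1 condition and 3304 (12.46%) in all 7, whereas 44.4% and 8.69% of the other reproducible pairs were. The remaining numbers were 4276 in 2 conditions, 2816 in 3, 2271 in 4, 2083 in 5 and 2252 in 6. More widely shared pairs were shorter, with a median distance of 332 kb for pairs of 1 condition and 150 kb for pairs of all 7. The 3304 pairs listed in all 14 libraries joined 3792 baits.

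The knockout held the most pairs of its own. Of its 12047 reproducible promoter pairs, 2741 (22.8%) were reproducible in no other condition, and 815 of those were listed in none of the other 12 libraries. In the 6 wild-type conditions the pairs of 1 condition numbered between 838 and 1322 (8.58% to 11.6%), and those listed nowhere else between 99 and 191. The knockout was also most often the one condition that lacked a pair, with 786 such pairs against between 122 and 482 in the others. E12.5 and E14.5 pinna followed with 482 and 442, whereas the 4 wild-type E10.5 conditions had between 122 and 149. The knockout replicates also agreed most. Both listed 52.0% of its promoter pairs, against 35.8% to 44.1% in the other conditions, and 39.6% of the other pairs, against 28.1% to 33.3%. How this bears on its own pairs was not tested, and pairs set apart in 1 condition were counted for promoter pairs only.

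**Figure D3:**
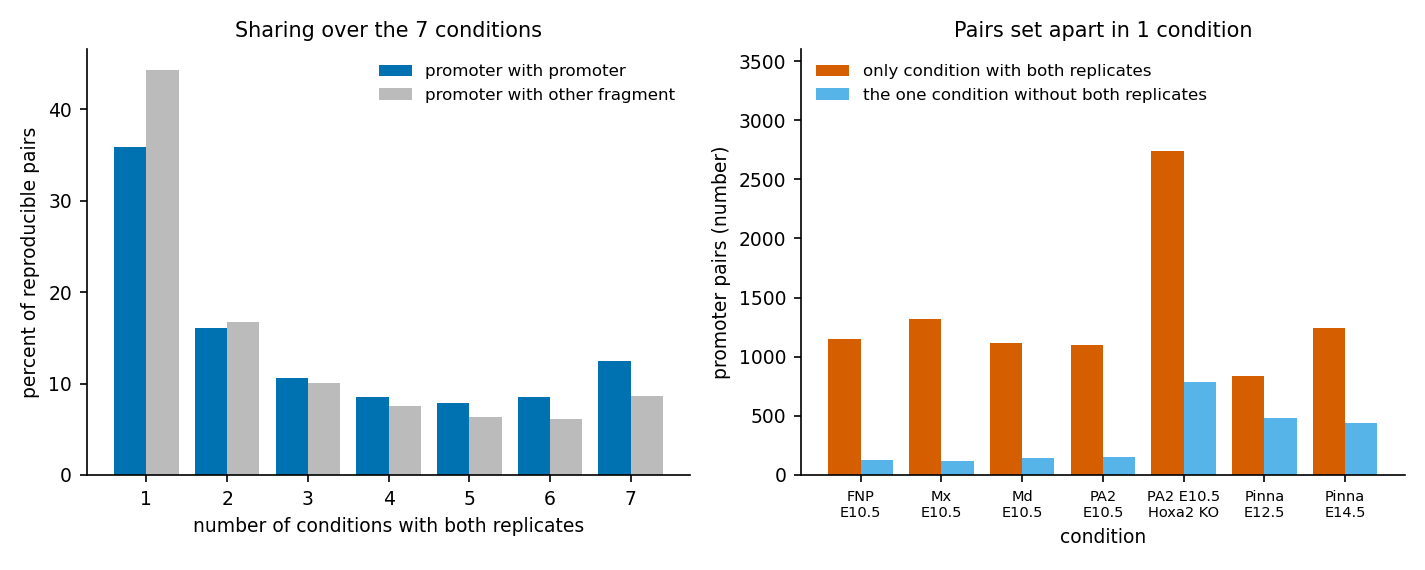
Left, percent of reproducible pairs by the number of conditions in which both replicates listed them, for promoter pairs (blue) and pairs of a promoter with another fragment (grey). Right, for each condition, the number of promoter pairs reproducible only there (orange) and in every condition but that one (light blue). Promoter pairs were more often shared by all 7 conditions (12.46% against 8.69%), and the knockout had the highest bars, 2741 and 786.

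Gene families differed widely in how many of their possible pairs were reproducible. Since short pairs are listed more often, each family is set beside all promoter pairs at the same distances, and beside 4.41% of all possible pairs. The counts describe the lists and were not tested. Of 13 families with at least 30 possible pairs, 7 lay above all pairs at the same distances. The replication-dependent histones, which package newly replicated DNA, had 204 of 310 pairs (65.8%, against 8.21%), and 94 of them were in all 7 conditions. The Hox genes had 70 of 181 (38.7%, against 13.4%), with 17 in all 7 conditions. The clustered protocadherins, adhesion proteins of neurons, had 78 of 276 (28.3%, against 11.53%). Keratins and keratin-associated proteins had 252 of 1676 (15.0%, against 9.45%), cytochromes P450 19 of 122 (15.6%, against 9.54%) and Zfp zinc finger genes 100 of 771 (12.97%, against 8.30%). A list of transcription factors of craniofacial patterning had 4 of 30 (13.3%, against 9.10%), 1 of them in all 7 conditions.

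Other families lay below all pairs at the same distances. Olfactory receptors, the largest family with 875 baits, had 1056 of 24444 possible pairs (4.32%, against 5.44%). Vomeronasal receptors had 32 of 668 (4.79%, against 6.62%), serpins 14 of 205 (6.83%, against 9.25%), chemokine ligands 1 of 76 (1.32%, against 6.72%) and cytosolic ribosomal proteins 1 of 33 (3.03%, against 10.2%). UDP glucuronosyltransferases had 0 of 31. Among families with few possible pairs, the Iroquois genes had 3 of 6, collagens 2 of 12, and the Wnt, Fgf and Bmp ligands 0 of 4, 5 and 6. Histones, olfactory receptors and protocadherins include near-identical copies, and how reads shared between copies bear on their pairs was not tested. At a score of 10 or more the histones (51.0%, against 1.88%) and Hox genes (17.7%, against 3.24%) were still the 2 highest families, and the cytochromes P450 fell below all pairs at the same distances (1.64%, against 2.00%).

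**Figure D4:**
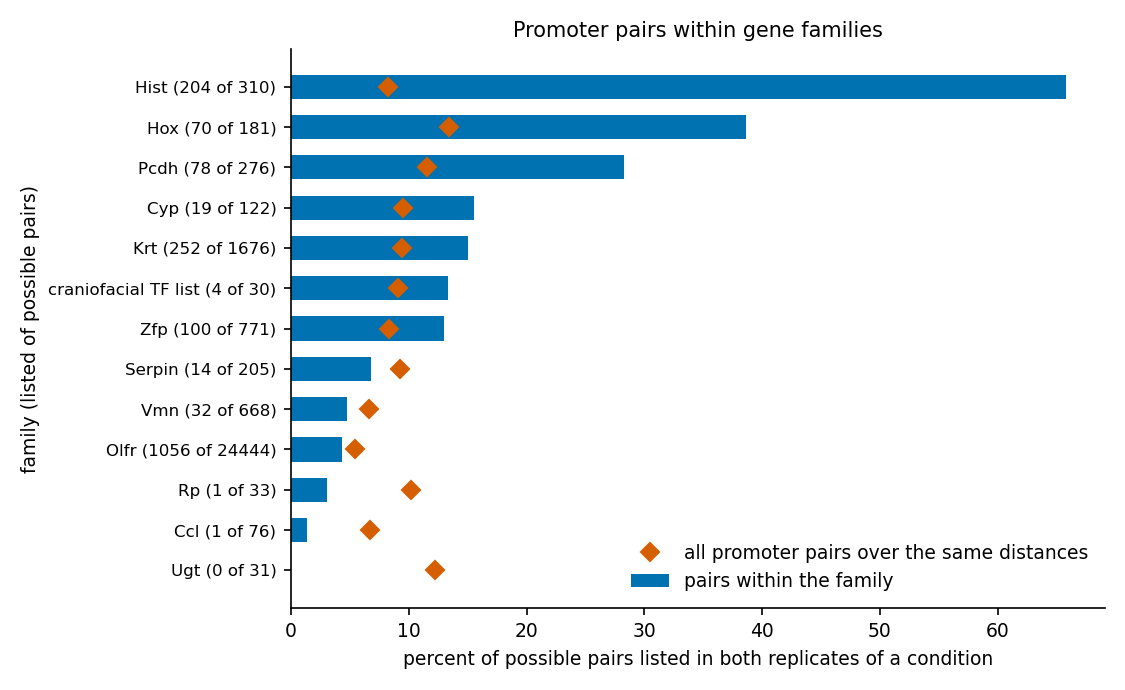
Percent of possible within-family promoter pairs that both replicates of at least 1 condition listed (blue bars), for the 13 families with at least 30 possible pairs, with the reproducible and possible numbers in brackets. Orange diamonds give the percent of all promoter pairs over the same distances. Histones reached 65.8% and Hox genes 38.7%, while 6 families lay left of their diamonds.

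The families did not follow the same course over the conditions. Within-family Hox pairs numbered between 56 and 70 in the 8 wild-type E10.5 libraries, 58 and 53 in the knockout, 59 and 37 in the E12.5 pinna, and 38 and 20 in the E14.5 pinna. Both E14.5 libraries lay below all E10.5 libraries. Histone pairs numbered between 160 and 183 in the wild-type E10.5 libraries, 126 and 132 in the knockout, 178 and 192 in the E12.5 pinna, and 186 and 201 in the E14.5 pinna, so the knockout libraries were the lowest and the E14.5 libraries lay above all E10.5 libraries. Zfp pairs were also fewest in the knockout, at 47 and 58 against between 63 and 92 elsewhere. Keratin pairs, at 230 and 218, were most numerous there.

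Most baits had few partners. Among the 14492 baits in a reproducible pair, the median was 2 partners, 4644 baits had 1 partner and 1062 had 10 or more. The 10 baits with the most included 3 keratin-cluster baits and 1 histone bait. Krtap16-1, a keratin-associated protein gene, and the bait of Brd2, a reader of acetylated histones, and H2-DMa each had 45 partners, of 176 and 137 possible. Cnot3, a subunit of the CCR4-NOT deadenylase, had 39 of 71 (54.9%), and Irf2bp1, a transcriptional corepressor, had 39 of 74 (52.7%). Krt23 had 36, Ppp1r12c 35, Zbtb32 34, Krt12 and Hist1h2ai/Hist1h2bl 33 each and Fbxo46/Qpctl 32.

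Gene direction made little difference to the share of reproducible pairs. Among baits with the start sites of 1 protein-coding gene, 3263 of 77227 convergent pairs (4.23%), 3186 of 76812 divergent pairs (4.15%) and 7087 of 157891 tandem pairs (4.49%) were reproducible, against 4.26%, 4.43% and 4.54% of all pairs at the same distances. Pairs with a protein-coding start site at both ends reached 4.81% (4.53% at the same distances), those with 1 such end 3.43% (4.09%) and those with none 2.89% (4.30%). By chromosome, the share was highest among the autosomes on chromosome 13, which carries the Hist1 cluster, at 6.79%, and was 2.86% on chromosome X.

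Promoter sequence was read for the baits of shared pairs, with no test. Of 3243 promoters on baits of pairs listed in all 14 libraries, 56.6% held a GC box, 3.55% the CTCF-type core, 38.0% a CCAAT box and 9.62% a TATA box. Of all 16416 promoters on baits these shares were 51.1%, 2.61%, 37.5% and 11.4%. Of 4733 promoters on baits in no reproducible pair they were 46.6%, 2.18%, 35.8% and 12.6%. The median number of CpG in the 300 bases was 18 in the first set, 16 over all and 13 in the last.

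The 10 strongest pairs listed in all libraries, each bait used once, were led by histone genes far apart in the Hist1 cluster on chromosome 13. Hist1h2ag/Hist1h4i and Hist1h3e, 1.52 Mb apart, scored between 18.61 and 141.49 with a median of 62.0. Hist1h2ai/Hist1h2bl and Hist1h4d (1.87 Mb) and Hist1h1b/Hist1h3i and Hist1h2ae (1.79 Mb) had mean scores of 55.5 ± 31.1 and 52.9 ± 25.4 (SD, n = 14). Scores this high varied by several fold between replicates, and repeated values, such as 35.98 in 4 libraries for Irx3 and Irx5, show that they are not evenly resolved.

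The other 7 joined genes of unlike or related function. H13, a signal peptide peptidase, and Bcl2l1, which blocks apoptosis, lay 169 kb apart on chromosome 2 with a mean score of 47.4 ± 17.2 (SD, n = 14), and their promoters are those with a CTCF-type match. Acss2/Ggt7 and Procr (40.7 ± 9.73), Paqr9 and Pls1 (40.5 ± 8.77), Rps3 and Neu3 (39.7 ± 12.8) and Rpl26 and Pfas (37.8 ± 7.68) lay between 88.5 kb and 345 kb apart. The remaining 2 joined Iroquois homeobox genes. Irx3 and Irx5 (chr8:91798172-91804278 and chr8:92356599-92358547, 556 kb) scored between 22.96 and 50 with a median of 36.0, and Irx1 and Irx2 (665 kb) between 25.10 and 53.32 with a median of 34.8. The Irx pairs were listed in every library and passed neither the test over the 7 conditions (limma, adjusted p = 0.806 and 0.362) nor that of knockout against wild-type PA2 (limma, adjusted p = 0.632 for both).

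**Figure D5:**
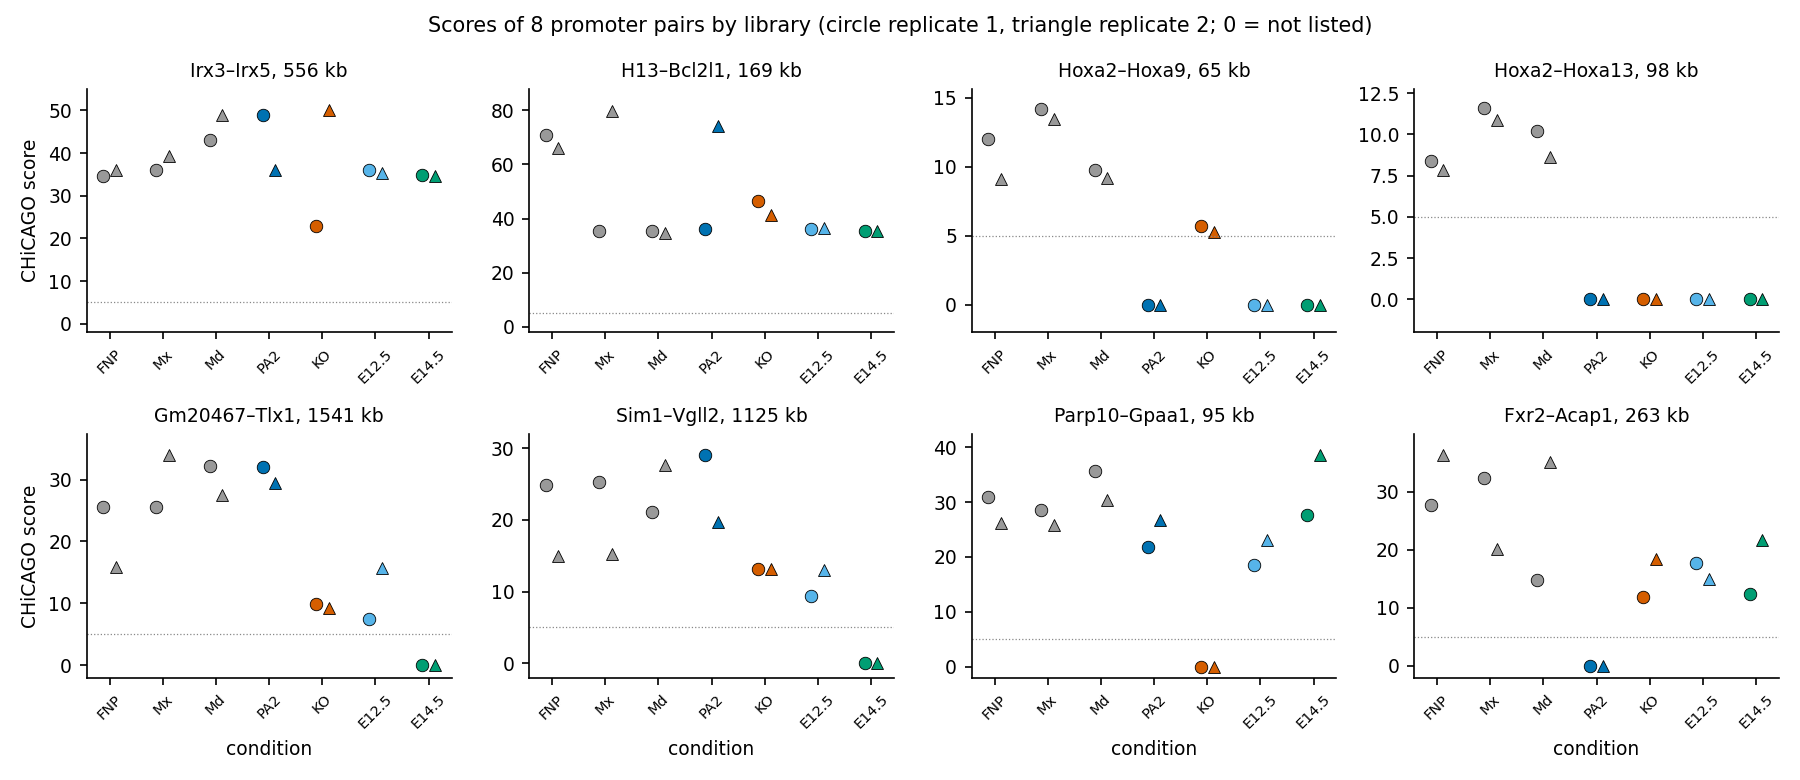
CHiCAGO scores of 8 promoter pairs in each library by condition, with circles for replicate 1 and triangles for replicate 2, a dotted line at the score of 5 and unlisted pairs drawn at 0; each panel has its own axis. Irx3 with Irx5 and H13 with Bcl2l1 are listed in all 14 libraries, Hoxa2 with Hoxa9 or Hoxa13 is unlisted in the 6 Hoxa2-expressing libraries, Gm20467 with Tlx1 and Sim1 with Vgll2 are unlisted in the E14.5 pinna, Parp10 with Gpaa1 in the knockout and Fxr2 with Acap1 in wild-type PA2.

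Differences between conditions were tested with limma on asinh of the score, over every pair that at least 4 libraries listed, and called at an adjusted p below 0.05. Over the 7 conditions 965 of 25742 promoter pairs tested were called (3.75%), beside 4.35% of all 161898 pairs tested, so promoter pairs were called at a rate near the background. Without E12.5 pinna replicate 1 the count was 1528, and without both Md replicate 1 and E12.5 pinna replicate 2 it was 1929. By family, 25 of 194 histone pairs, 9 of 67 Hox pairs, 21 of 958 olfactory receptor pairs and 4 of 252 keratin pairs were called.

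Of the 5 promoter pairs with the largest F, 4 were listed in all 12 wild-type libraries and in neither knockout library, and 1 was absent in the E14.5 pinna. Parp10, an ADP-ribosyltransferase, and Gpaa1, a subunit of the GPI transamidase, 95.2 kb apart (chr15:76233353-76244204 and chr15:76329955-76338042), scored between 18.50 and 38.50 in the wild-type libraries (F = 152.0, limma adjusted p = 1.4e-05). Hist1h2ak/Hist1h2bn and Hist1h2ae (1.81 Mb, F = 153.6), Lrrc75aos1 and Lrrc75a/Mmgt2 (10.2 kb, F = 146.9) and Ncln/S1pr4 and Gna11 (45.5 kb, F = 84.9) showed the same pattern. The histone pair scored 33.53 in several libraries, among them both Mx libraries. Its small spread, and so its F, rests in part on scores that are not evenly resolved. The bait of 9530036O11Rik/Gm26894 and that of Mnx1, a homeobox gene of motor neurons, 1.01 Mb apart, scored between 10.27 and 27.83 in 12 libraries and were unlisted in both E14.5 libraries (F = 93.4). All 5 were called under each of 20 alternatives.

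Some pairs were strongest in the pinna or PA2. Col6a2 and Col6a1, which encode chains of collagen VI, 101 kb apart, scored 24.64 and 22.15 in the E12.5 pinna and 23.41 and 28.13 in the E14.5 pinna. They scored between 6.86 and 13.94 in the 10 E10.5 libraries, so the groups did not overlap (limma over the 7 conditions, adjusted p = 0.0452; E14.5 pinna against PA2, adjusted p = 0.0564). Tbx3 and Tbx5, T-box genes of limb and heart, 162 kb apart, scored 14.51 and 11.59 in PA2, 13.11 and 10.77 in the knockout and 20.99 and 13 in the E12.5 pinna. They were unlisted in both E14.5 libraries and at most 5.86 in the Hox-negative libraries (limma over the 7 conditions, adjusted p = 0.0218). Dlx3 and Dlx4, homeobox genes of the arches, 28.7 kb apart, were listed in all 8 PA2, knockout and pinna libraries, at between 5.65 and 11.44, and in 2 of the 6 Hox-negative libraries, at 5.12 and 5.89 (limma over the 7 conditions, adjusted p = 0.355).

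Between Hoxa2-expressing and Hox-negative libraries, 2 of 23708 promoter pairs were called, 1 in each direction, beside 0.0162% of all 147808 pairs tested (0.00744% higher and 0.0088% lower). At an unadjusted p below 0.05 there were 2378 promoter pairs. Hoxa2 and Hoxa9, 65.4 kb apart within the Hoxa cluster (GRCm38 baits chr6:52162863-52166906 and chr6:52229395-52231193), scored 12.03 and 9.12 in FNP, 14.22 and 13.49 in Mx, and 9.80 and 9.21 in Md. The pair was unlisted in all 6 PA2 and pinna libraries and scored 5.74 and 5.29 in the knockout. The difference was -3.10 on the asinh scale (SE 0.479, limma adjusted p = 0.0460), and knockout against wild-type PA2 gave 2.41 (SE 0.485, limma adjusted p = 0.0297). The knockout scores lay just above 5, the lowest score listed, and a PA2 score just below 5 would also be written as 0. The size of the difference in PA2 can therefore not be read from this call. Both comparisons use the 2 wild-type PA2 libraries, and the first counts the 2 replicates of a condition as independent. In the knockout EGFP takes the place of Hoxa2, so the Hoxa2 bait itself may differ there. How that bears on the listing of its pairs was not tested.

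Hist1h2ai/Hist1h2bl and Btn1a1, a butyrophilin gene, 1.75 Mb apart on chromosome 13, showed the opposite pattern. The pair scored 5.78 and 12.30 in PA2, 8.24 and 25.27 in the E12.5 pinna, 9.80 and 24.14 in the E14.5 pinna and 7.29 and 8.97 in the knockout. It was unlisted in all 6 Hox-negative libraries (difference 3.21, SE 0.495, limma adjusted p = 0.0460). Neither call was stable, since leaving out any 1 library other than a PA2 library gave 0 calls among promoter pairs. The Hoxa2 and Hoxa9 call held in 7 of 19 alternatives and the other in 6 of 19. A fit with 1 mean per condition over the same libraries, in place of 2 group means, called 366 of 23708 promoter pairs. It called 3424 of all 147808 pairs tested.

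Other pairs of Hoxa2 with genes of the 5′ part of the cluster, chosen after their values were seen, were also listed in the 6 Hox-negative libraries and in none of the 6 Hoxa2-expressing libraries, but unlike Hoxa2 and Hoxa9 they were unlisted in the knockout and did not pass the test. Hoxa2 and Hoxa13, 98.3 kb apart, scored 8.38 and 7.81 in FNP, 11.59 and 10.84 in Mx and 10.19 and 8.62 in Md, and were unlisted in the other 8 libraries (limma adjusted p = 0.0773). Hoxa2 and Hoxa10, 76.3 kb apart, scored between 5.49 and 7.25 in the Hox-negative libraries and were also unlisted elsewhere (limma adjusted p = 0.115). Their absence in the knockout carries the same limit, since the Hoxa2 bait may differ there. Not all Hoxa pairs were confined to the Hox-negative libraries, since Hoxa11 and Hoxa13, 15.0 kb apart, were listed in all 10 E10.5 libraries at between 5.76 and 9.78 and in no pinna library. Nor was the pattern particular to Hox genes. Hoxa2 and Skap2, which is no Hox gene, 152 kb apart, were listed in 5 libraries, all Hox-negative, at between 5.22 and 7.78. They were unlisted in FNP replicate 1 and in all other libraries (limma adjusted p = 0.174).

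From E10.5 PA2 to the E14.5 pinna, 278 of 25742 promoter pairs were called (1.08%), 105 higher and 173 lower at E14.5, beside 1.57% of all pairs tested (0.775% higher and 0.793% lower). The count is near the background, and its split depended on the filter, the scaling and single libraries. With a score needed in at least 2 libraries, 325 rose and 320 fell, beside 5110 and 2719 over all pairs tested. After quantile normalization 19 rose and 84 fell, beside 110 and 588 over all pairs tested. Without PA2 replicate 1 or 2 more pairs rose than fell (126 and 81, 120 and 95), whereas without E14.5 pinna replicate 1 or 2 fewer rose (25 and 29) and more fell (345 and 386). The total was 147 without knockout replicate 1, 139 without knockout replicate 2 and 643 without both libraries that stand apart. Of the 173 lower pairs, 167 were unlisted in both E14.5 libraries, and of the 105 higher pairs, 104 were unlisted in both PA2 libraries. For these pairs the test rests on a group with no measured spread.

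The losses named here, picked for the largest differences, had a gene of a developmental regulator at 1 or both ends and spanned long distances. Over all 278 called promoter pairs the median distance was 248 kb, against 253 kb for those tested, so the calls as a whole were not longer. Gm20467 and Tlx1, a homeobox gene, 1.54 Mb apart, scored 31.99 and 29.47 in PA2 and 0 at E14.5 (difference -4.12, SE 0.267, limma adjusted p = 0.000262). Nkx2-9, a homeobox gene, and Foxa1, a forkhead gene, 931 kb apart, scored 21.11 and 33.48 in PA2 and 0 at E14.5 (difference -3.97, SE 0.271). Sim1, a bHLH-PAS gene, and Vgll2, a cofactor of TEAD proteins, 1.13 Mb apart (chr10:50893724-50897895 and chr10:52017323-52024958), scored 29.02 and 19.73 in PA2 and 9.35 and 12.98 in the E12.5 pinna. They were 0 at E14.5 and between 13.09 and 27.69 in the remaining 8 libraries (difference -3.87, SE 0.267, limma adjusted p = 0.000316). These 3 pairs were listed in every library other than E14.5 and were called under each of 20 alternatives. Gm14114 and Foxa2 (1.21 Mb, difference -3.84, SE 0.766, limma adjusted p = 0.0373) were unlisted in E12.5 replicate 2 as well and were called in 4 of 20.

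Because some of these are homeobox genes, pairs of 2 homeobox genes were then counted, a list chosen after these values were seen and given no test of its own. The 204 homeobox baits had 257 possible pairs, of which 87 were reproducible (33.9%, against 11.0% of all pairs at the same distances). Leaving out pairs of 2 Hox genes, 19 of 95 were reproducible (20.0%, against 6.87%), with a median distance of 627 kb. A library listed between 73 and 88 homeobox pairs at E10.5 in wild type, 73 and 68 in the knockout, 72 and 47 in the E12.5 pinna, and 44 and 26 in the E14.5 pinna. Pairs other than 2 Hox genes numbered between 14 and 21, 17 and 17, 14 and 10, and 6 and 6. The E14.5 libraries were the lowest by both counts, although their total numbers of promoter pairs, 20285 and 18526, lay within the range of the other libraries.

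Of 85 homeobox pairs tested, 11 were lower at E14.5 than in PA2 and 0 were higher, 12.9% beside the 0.793% lower among all pairs. Their median difference was -1.52, beside -0.03 over all promoter pairs tested. Outside the Hox clusters 5 of 19 were lower, with a median difference of -2.73 over the 19. The 5 include the pairs of Gsx1, Pdx1 and Cdx2 with each other, which share baits within 114 kb. Several of the Hox calls share Hoxb3. The 11 pairs are therefore not independent, and these percentages do not count separate loci. Hmx2 and Nkx1-2, 1044 kb apart, scored 13.49 and 9.64 in PA2 and were unlisted in all 4 pinna libraries (difference -3.13, SE 0.338, limma adjusted p = 0.00269). Lbx2 and Vax2, 627 kb apart, scored 11.35 and 10.99 in PA2, 8.36 and 5.75 in the E12.5 pinna and 0 at E14.5 (difference -3.11, SE 0.315, limma adjusted p = 0.00200). Gsx1 and Cdx2, 114 kb apart, scored 9.11 and 9.27, then 5.25 and 5.47, then 0 (difference -2.91, SE 0.268, limma adjusted p = 0.00127).

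The other 8 homeobox calls were Gsx1 with Pdx1, Pdx1 with Cdx2, Hoxa11 with Hoxa13, Hoxc12 with Hoxc11, Hoxb13 with Hoxb3, Hoxb8 with 2 fragments of Hoxb3 and Hoxb7/Hoxb8 with Hoxb3, with scores of 0 in both E14.5 libraries. Another pair of Hoxb13 and Hoxb3 fragments, 147.7 kb apart, was not called (difference -1.19, SE 0.649, limma adjusted p = 0.546). It scored 0 and 5.39 in PA2, 10.71 and 6.27 in the E12.5 pinna and 0 in both E14.5 libraries. Under 20 alternatives between 7 and 11 of the 11 were called. Pairs with 1 homeobox end gave 3 higher and 16 lower of 389 tested. In the same contrast 3 of 194 histone pairs, 0 of 252 keratin pairs and 10 of 958 olfactory receptor pairs were called. At the sequence level, 0.568% of 176 promoters on homeobox baits held the CTCF-type core and 49.4% a CCAAT box, against 2.61% and 37.5% of all promoters on baits.

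Between the knockout and wild-type PA2, 606 of 25742 promoter pairs were called (2.35%), 102 higher and 504 lower in the knockout, beside 2.16% of all pairs tested (0.362% higher and 1.8% lower). Pairs seen only in the 2 knockout libraries cannot reach the minimum of 4 libraries. With a minimum of 2 libraries 974 promoter pairs were higher and 683 lower. Over all 312692 pairs tested there, 8312 were higher and 4545 lower, so the direction turned over all pairs as well. The number higher also depended on single libraries, at 25 and 23 without knockout replicate 1 or 2 (601 and 692 lower) and 181 and 189 without PA2 replicate 1 or 2 (427 and 454 lower). Of the 102 higher pairs, 100 were unlisted in both wild-type PA2 libraries. Of the 504 lower pairs, 468 were unlisted in both knockout libraries and 392 were listed in all 12 others. They joined 800 baits, 122 of which were in more than 1 such pair. This comparison uses the same 2 wild-type PA2 libraries as that of the E14.5 pinna.

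The knockout pairs with the largest differences were all absent there. The baits of Mospd3/Pcolce and of Pcolce, an enhancer of procollagen processing, 16.7 kb apart, scored 35.35 and 46.92 in wild-type PA2 and 0 in the knockout (difference -4.40, SE 0.297, limma adjusted p = 7.4e-05). Olfr1359 and Hist1h2bm/Hist1h3h, 15.1 kb apart, scored 36.74 and 33.90 against 0 (difference -4.26, SE 0.244). Hist1h2ak/Hist1h2bn and Hist1h2ae, 1.81 Mb apart, scored 32.43 and 33.53, a value repeated in other libraries, against 0 (difference -4.19, SE 0.188). These 3 were listed in all 12 wild-type libraries and called under each of 20 alternatives. Arhgef40 and Olfr221 (difference -4.23, SE 0.814, limma adjusted p = 0.0219) and Tmem253/Zfp219 and Olfr221 (difference -4.22, SE 0.848, limma adjusted p = 0.0293) were also unlisted in 3 pinna libraries and were called in 14 and 11 of 20. In a pair chosen after its values were seen, Birc2, an inhibitor of apoptosis, and Yap1, the Hippo coactivator, 168 kb apart, scored between 11.19 and 24.37 in the 12 wild-type libraries and 0 in the knockout (difference -3.18, SE 0.228, limma adjusted p = 0.000111). Another pair of Birc2 and Yap1 fragments, 165.5 kb apart, was listed in 7 libraries and was unlisted in FNP, Mx and Md replicate 1. It scored 8.95 and 5.17 in wild-type PA2 and 0 in the knockout, and was not called (difference -2.62, SE 0.823, limma adjusted p = 0.173).

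Whole baits were silent in the knockout lists. There, 23 baits had no listed pair of any kind within 2 Mb in either library and at least 3 in each of the other 12 libraries. The same count was 1 for the E14.5 pinna and 0 for the other 5 conditions. Whether these baits were scored in the knockout cannot be read from the lists. These 23 baits took part in 53 of the 504 lower pairs, among them the pairs of Gpaa1, Gna11, Lrrc75a/Mmgt2 and Pcolce named above. The Gpaa1 bait had between 6 and 10 listed pairs in the other libraries, Gna11 between 6 and 17, and Pcolce between 9 and 20. Others were Pltp, a phospholipid transfer protein gene, with 8 lower promoter pairs, Eif3i/Tmem234 with 3 and Ash1l, a histone methyltransferase gene, with 2.

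Histone pairs made up 24 of the 504, of 194 histone pairs tested, and 0 histone pairs were higher, beside the 1.8% lower among all pairs. They joined 16 baits, led by Hist1h2ak/Hist1h2bn with 7 and Hist1h2ai/Hist1h2bl, Hist1h4k and Hist1h2ae with 5 each, and none of them touched a silent bait. Their median difference over all 194 was -0.76, beside -0.09 over all promoter pairs tested. The knockout lists also had the shortest median distances of promoter pairs, 232 and 238 kb, against 245 to 300 kb in the other libraries. Their shares beyond 1 Mb were the lowest, 6.17% and 7.07%, against 7.56% to 11.8%. Some histone pairs span long distances, such as the 1.81 Mb pair named above, and how this bears on the histone calls was not tested. Of the other families, 1 of 67 Hox pairs (higher, Hoxa2 with Hoxa9), 2 of 72 protocadherin pairs, 5 of 252 keratin pairs, 11 of 958 olfactory receptor pairs and 3 of 110 Zfp pairs were called.

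1 bait, chosen with its pairs after their values were seen, accounted for a run of higher calls in both contrasts that share wild-type PA2. Fxr2, an RNA-binding protein gene on chromosome 11, had 2 listed promoter pairs in each wild-type PA2 library and between 15 and 31 in the other 12, and 8 of its pairs were listed in all 12 and in neither PA2 library. Over all its listed pairs within 2 Mb it had 23 and 22 in PA2 and between 38 and 71 elsewhere. It gave 11 of the 105 pairs higher at E14.5 and 8 of the 102 higher in the knockout. Fxr2 and Acap1, 263 kb apart, scored 27.80 and 36.26 in FNP, 32.40 and 20.19 in Mx, 14.88 and 35.20 in Md, 11.93 and 18.44 in the knockout, 17.72 and 14.99 at E12.5, 12.46 and 21.65 at E14.5, and 0 in both PA2 libraries. The pairs with Slc2a4, a glucose transporter gene, and Sox15 had the same gap.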

How the data were processed

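PCHi-C was measured in 14 libraries. Per the labels and the study's methods, the authors made the reads with bcl2fastq 2.17, aligned them to GRCm38 (mm10) using HiCUP, scored interactions by CHiCAGO and deposited for each library a headerless list of a bait, another HindIII fragment and the CHiCAGO score, with no score below 5. The lists hold no read counts. Both listing directions of a pair were merged at the higher score, and an unlisted pair was set to 0. Fragments were named from start sites of GENCODE vM21, the promoters came from RefSeq, and 308 fragments on other sequences than the 21 chromosomes were not used here.

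Single values were compared with exact permutation tests. Pairs of any kind that at least 4 libraries listed were fitted with limma 3.58.1 (R 4.3.3) on asinh of the score with a trended eBayes, and p-values were Benjamini-Hochberg adjusted over all pairs tested. The fit was tested on simulated data, where it recovered few of the changed pairs over the 7 conditions and between 2 libraries and 2, so low counts of calls there do not show a lack of change. Pairs that share a bait are not independent. Named pairs were the 10 strongest in all libraries, the 5 largest differences per comparison whose groups did not overlap, the strongest pair of each family and the 10 baits with most partners, with others stated as chosen after their values were seen. Some of these pairs are not reported here. The members, families and lists were all chosen with earlier results of these data known. Python 3.11.15, pandas 2.3.3, NumPy 2.4.6, SciPy 1.17.1 and matplotlib 3.10.9 were used.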

Additional observations from a re-analysis of the deposited data

Results flagged for a closer look

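A search for single libraries far from the others covered 42 groups of 6 libraries. They were formed by the number, share, distance and score of promoter pairs, by family and homeobox counts and by the scores of the 10 strongest pairs. Of these groups 5 held such a library, all of them by the score of a pair. Chance alone gives about 1 in 20 for normally spread values. Scores this high repeat the same values and are not evenly resolved, so that rate cannot be applied to them. H13 and Bcl2l1 scored 74.29 in PA2 replicate 2, against 35.31 to 36.69 in the other Hoxa2-expressing libraries. Acss2/Ggt7 and Procr scored 62.76 in E14.5 pinna replicate 2, against 32.21 to 35.53. Rps3 and Neu3 scored 75.47 in Md replicate 2, against 33.37 to 45.77 in the other Hox-negative libraries. Irx3 and Irx5 scored 48.95 in PA2 replicate 1, against 34.60 to 35.98, and Rpl26 and Pfas 58.39 in the same library, against 28.66 to 39.63. All 5 are among the 10 strongest pairs, and the values are of 1 library each.

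Promoter pairs outside the 2 Mb limit were most numerous in E12.5 pinna replicate 2, a library named as merged. It listed 4761 promoter pairs between chromosomes, where the lowest library had 177 and the median was 283.5. It listed 5844 promoter pairs more than 2 Mb apart on the same chromosome, where the lowest library had 848 and the median was 2735.5.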

How the results depend on the processing

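Requiring a score of 10 or more left a median of 4018.5 promoter pairs per library and raised their share to 24.2%. It left 0.740 percentage points between promoter and other pairs in the percent listed by both replicates (exact permutation p = 0.453). It left 9.15% of reproducible pairs in all 7 conditions. The difference in share between Hoxa2-expressing and Hox-negative libraries was then -3.34 and passed the test with libraries as units (exact permutation p = 0.0195). With equal numbers of top-scoring pairs (119370) the median was 16884 and that difference -1.38 (exact permutation p = 0.0281), and with a limit of 1 Mb the median was 18449. Over 5 conditions, without Md and the E12.5 pinna, the replicate difference was 10.3 (exact permutation p = 0.0625, the smallest possible) and 16.4% of reproducible pairs were in all 5.

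Among promoter pairs called by limma, a minimum of 2 libraries gave 2622 over the 7 conditions, 5 between Hoxa2-expressing and Hox-negative libraries, 645 at E14.5 and 1657 in the knockout. A minimum of 6 libraries gave 27 for the second and 127 for the third, and quantile normalization 103 for the third. A cap of the score at 20 gave 29 for the second, and a fit with 1 mean per condition 366 for the second. Without both Md replicate 1 and E12.5 pinna replicate 2, a choice made after seeing the data, the 4 counts were 1929, 0, 643 and 1133. With the replicate number as a block they were 928, 0, 258 and 586. Same-numbered libraries deviated together only weakly (correlations 0.0113 to 0.110), so the numbers share only a number. Leaving out each library in turn gave 1040 to 1528, 0 to 5, 139 to 415 and 608 to 807, a share difference of -1.06 to -0.298, a median of 20285 to 20326 pairs and a distance difference of -71.8 to -69.2 kb. Of the alternatives for single named pairs, 282 kept the call and 56 lost it, and none changed direction. Depth could not be assessed.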
